A study of Mus musculus with 9 samples.

Results

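The genes described here are 10 members of the TGF-β and BMP signalling system, measured in mature megakaryocytes (mMKs) of the mouse bone marrow with and without ionizing radiation (IR). They are the ligand genes Tgfb1, Tgfb2, Tgfb3, Bmp4 and Inhba, the latency gene Ltbp1, the receptor genes Tgfbr1 and Tgfbr2, the feedback inhibitor Smad7 and the BMP antagonist Chrdl1. They were chosen by name, and every non-control probe that the array files assign to them was taken. This gave 22 probes, of which 21 were bright enough to be tested, and all 10 genes were among the 29410 genes tested. Another 91 tested genes of the same pathways were set beside them, and 16 further genes of that list were too dim to be tested.

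TGF-β family ligands are secreted dimers that bind pairs of type I and type II receptor kinases on the cell surface. TGF-βs and activins signal mainly through SMAD2 and SMAD3, BMPs through SMAD1, SMAD5 and SMAD9, and both arms share SMAD4. TGF-β is released in a latent complex with a binding protein of the LTBP family, whereas BMPs are held back by secreted antagonists. Megakaryocytes store much TGF-β1 in their α-granules and pass it on to platelets, and TGF-β1 from megakaryocytes is known to hold hematopoietic stem cells quiescent and to drive marrow fibrosis. Stromal, osteoblastic and endothelial cells of the marrow also make ligands and antagonists of the family.

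The mMKs came from male mice in 3 groups with 3 arrays each. Ctrl mice were not irradiated, and the paper's methods describe control mice as sham-irradiated. The mice of the other groups received 5 Gy of γ-rays to the whole body and were sampled at 1 or 3 days post IR (1 dpi and 3 dpi). The study obtained mMKs from marrow of the femur and tibia by magnetic enrichment of cells carrying CD41 and then CD42d, surface proteins of the lineage. Wild-type mice of the study were C57BL/6, but the labels of the arrays give neither strain nor age, and they say only that each experiment used different donors, so p-values measure the spread between these arrays. RNA was labelled with Cy3 and hybridized to Agilent 1-colour arrays with 60-base probes. The enriched cells are a bulk sample, and fewer cells of a type cannot be told apart from less RNA per cell.

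Levels below are given as log2 intensity relative to the array's own 75th percentile, so a difference of 1 is 2-fold. A level below 0 only means a signal under that percentile, and levels of different probes cannot be set against each other. A gene was called when the Benjamini-Hochberg adjusted p of limma over all genes was under 0.05 and the change was at least 2-fold. All 15 markers of megakaryocytes tested were well above background on all 9 arrays, and 0 of 15 were called in any comparison. Of all genes, 14.8%, 8.83% and 8.64% were called (in the order 1 dpi, 3 dpi, 3 against 1 dpi). In the same order, 7, 7 and 8 of the 15 markers had an adjusted p under 0.05, against 16275, 9391 and 13016 of all 29410 genes. Ctrl replicate 1 stood apart, with 69.1% of spots well above background against 79.5% and 80.8% on the other Ctrl arrays, and it was the only array on its slide. The 1 dpi arrays had 72.3% to 75.6% and the 3 dpi arrays 81.6% to 81.8% of spots above background.

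Probes of 4 ligand genes that lie in coding sequence are shown, since the isoforms of TGF-β are close relatives and the probes must tell them apart. The brightest Tgfb1 probe lies at chr7:26489877-26489936 on the plus strand and the brightest Tgfb2 probe at chr1:188449333-188449392 on the minus strand of mm9, the build of the array files. Both lie in the part of the gene that encodes the C-terminal end of the mature ligand. Over their best ungapped overlap of 41 bases, 28 bases (68.3%) are identical and are printed in capitals, and the longest shared run is 7 bases.
Tgfb1: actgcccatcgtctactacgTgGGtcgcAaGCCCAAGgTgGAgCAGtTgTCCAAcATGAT
Tgfb2: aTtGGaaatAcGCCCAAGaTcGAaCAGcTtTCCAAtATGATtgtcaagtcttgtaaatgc
The Inhba probe (chr13:16118634-16118693, plus strand) and the second Bmp4 probe (chr14:47003802-47003861, minus strand) also lie in the coding part of the mature ligands and are printed without capitals.
Inhba: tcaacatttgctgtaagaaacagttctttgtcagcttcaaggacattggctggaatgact
Bmp4: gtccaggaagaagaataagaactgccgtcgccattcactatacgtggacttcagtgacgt

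Of the 10 genes, 5 were called at 1 dpi against Ctrl, and 4 of these were higher and 1 was lower. Bmp4, Tgfb2, Tgfb3 and Chrdl1 were the genes that rose and Tgfbr1 the gene that fell. Among all genes tested, 14.8% were called at 1 dpi, 11.7% as higher and 3.08% as lower. At 3 dpi the same 4 genes were higher and 0 were lower, against 8.83% of all genes called, 7.04% as higher and 1.79% as lower. Between 3 and 1 dpi, Chrdl1 and Tgfbr1 were higher at 3 dpi and 0 genes were lower, against 8.64% of all genes called, 4.16% as higher and 4.48% as lower. Without the 2-fold minimum, 8, 7 and 7 of the genes had an adjusted p under 0.05 in these comparisons, against 16275, 9391 and 13016 of all 29410 genes. The comparisons with Ctrl share the Ctrl arrays, so that a gene called in both is not called on separate evidence. With arrays scaled to their median, 7 of the 10 genes were called at 1 dpi, 4 as higher and 3 as lower, the latter being Tgfbr1, Inhba and Smad7. Of all 29410 genes, 1887 were called higher and 2303 lower under that scaling, and their median log2 fold change was -0.098. After the main scaling, to the 75th percentile, the median over all genes was 0.23 for 1 dpi, 0.12 for 3 dpi and -0.08 for 3 against 1 dpi. Over the 10 genes the median log2 fold change was then 0.08, 0.52 and 0.63.

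**Figure D1:**
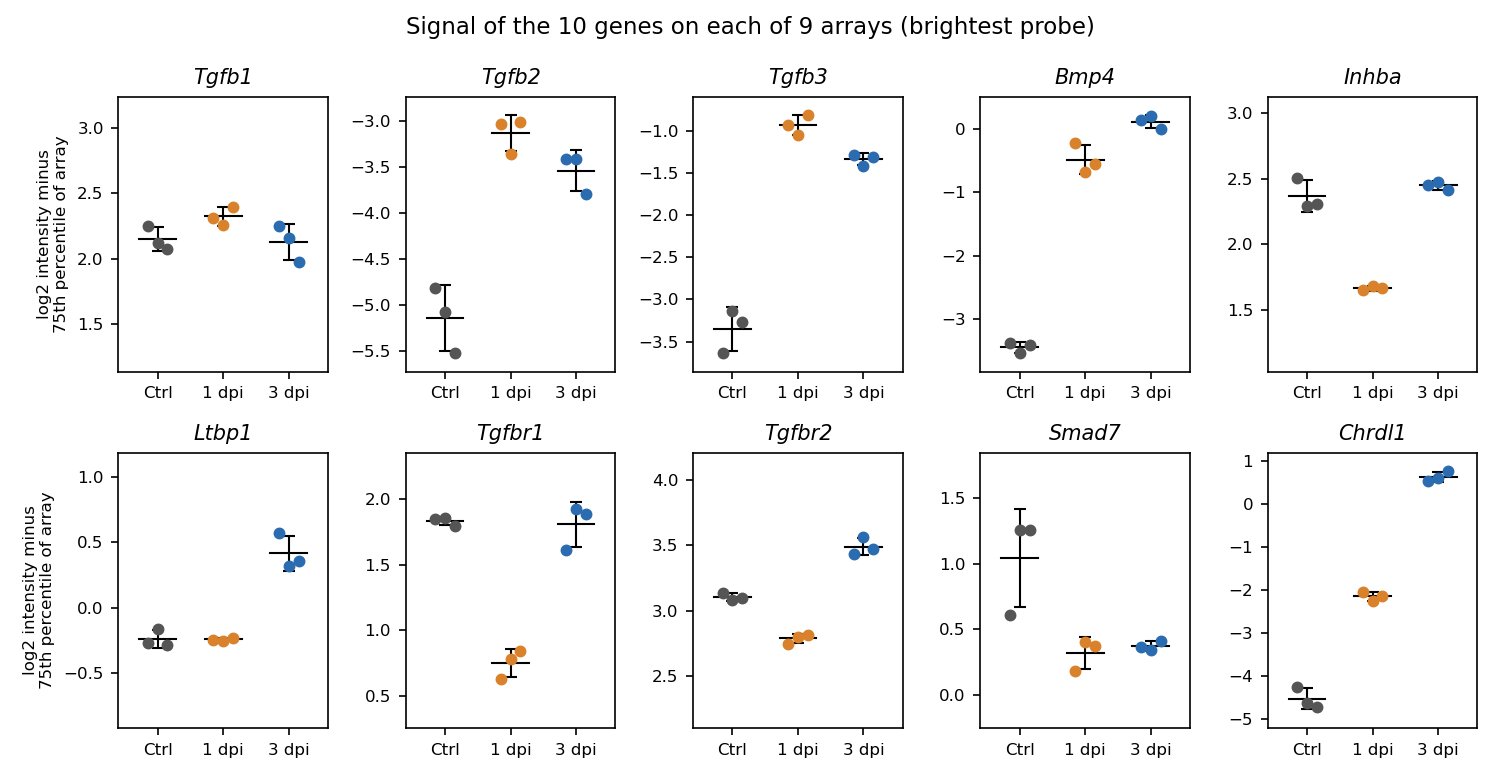
Levels of the 10 genes on each array, as log2 intensity minus the 75th percentile of the array, for the brightest probe of each gene. Points are the 3 arrays of Ctrl (grey), 1 dpi (orange) and 3 dpi (blue), and bars are the mean and SD. Each panel has its own axis, with at least 2 log2 units shown. The Ctrl arrays lie below all irradiated arrays for Tgfb2, Tgfb3, Bmp4 and Chrdl1, and the 1 dpi arrays lie below the others for Tgfbr1, Tgfbr2 and Inhba.

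Tgfb1, the main TGF-β isoform of megakaryocytes and platelets, was not called in any comparison. Its level was 2.25, 2.12 and 2.08 on the Ctrl arrays, 2.31, 2.26 and 2.40 at 1 dpi and 2.25, 2.16 and 1.98 at 3 dpi. The 1 dpi arrays lay just above the Ctrl arrays, whereas the 3 dpi arrays overlapped with Ctrl. The log2 fold change was 0.17 ± 0.09 (SE) at 1 dpi (adjusted p = 0.134) and -0.02 ± 0.09 at 3 dpi (adjusted p = 0.86). With arrays scaled to their median, the value at 1 dpi was -0.15, so no direction can be given for Tgfb1. The other Tgfb1 probe gave 0.04 at 1 dpi and -0.18 at 3 dpi and was not called either.

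Tgfb2, an isoform of TGF-β known from mesenchymal and epithelial tissues, rose 4.01-fold at 1 dpi and 3.01-fold at 3 dpi. Its brightest probe was at -4.81, -5.07 and -5.52 in Ctrl, at -3.03, -3.36 and -3.01 at 1 dpi and at -3.42, -3.41 and -3.80 at 3 dpi. Every irradiated array lay above every Ctrl array, and the Ctrl arrays were the most spread (SD 0.36, against 0.19 and 0.22). The log2 fold change was 2.002 ± 0.20 at 1 dpi (adjusted p = 0.000149) and 1.59 ± 0.20 at 3 dpi (adjusted p = 0.000663). Between 3 and 1 dpi the difference was -0.41 ± 0.20 (adjusted p = 0.135). The second Tgfb2 probe was well above background on 0 of 3 Ctrl arrays and on all irradiated arrays, which gives a rise of at least 1.94-fold at 1 dpi and at least 2.63-fold at 3 dpi. From 1 to 3 dpi this probe went the other way than the brightest, by 0.44 ± 0.19 (adjusted p = 0.0876). With a normexp background correction, the change at 3 dpi was 0.67 and fell short of the 2-fold minimum.

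Tgfb3, the isoform known from wound repair and palate closure, followed the same order of groups as the brightest Tgfb2 probe, but not the second. Its single probe gave -3.64, -3.14 and -3.27 in Ctrl, -0.93, -1.05 and -0.81 at 1 dpi and -1.28, -1.41 and -1.31 at 3 dpi. The 3 groups did not overlap, with 1 dpi the highest. Tgfb3 rose 5.34-fold at 1 dpi (log2 2.42 ± 0.13, adjusted p = 7.73e-06) and 4.03-fold at 3 dpi (log2 2.01 ± 0.13, adjusted p = 1.94e-05). The step from 1 to 3 dpi was -0.41 ± 0.13, with an adjusted p of 0.0391 but under the 2-fold minimum.

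Bmp4, a BMP that patterns mesoderm and is made by marrow stroma and endothelium, had the largest rise of the 10 genes at 1 dpi. Its brightest probe was at -3.38, -3.54 and -3.41 in Ctrl, at -0.23, -0.68 and -0.55 at 1 dpi and at 0.14, 0.20 and -0.00061 at 3 dpi. The groups did not overlap, and the order was Ctrl, 1 dpi, 3 dpi. Bmp4 rose 7.76-fold at 1 dpi (log2 2.96 ± 0.12, adjusted p = 2.17e-06) and 11.8-fold at 3 dpi (log2 3.56 ± 0.12, adjusted p = 7.16e-07). The further step from 1 to 3 dpi was 0.60 ± 0.12, which had an adjusted p of 0.00563 and stayed under the 2-fold minimum. The second Bmp4 probe, printed above, gave smaller changes of 2.02 ± 0.25 and 2.54 ± 0.25 and was called at both times.

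Inhba, whose product forms activin A, was lower at 1 dpi than in Ctrl without reaching the 2-fold minimum, and was back in the range of Ctrl at 3 dpi. It was at 2.51, 2.29 and 2.31 in Ctrl, at 1.65, 1.69 and 1.66 at 1 dpi and at 2.46, 2.48 and 2.41 at 3 dpi. All 1 dpi arrays lay below all others, and the 3 dpi arrays lay within the range of Ctrl. The difference was -0.70 ± 0.07 at 1 dpi (adjusted p = 0.000162) and 0.08 ± 0.07 at 3 dpi (adjusted p = 0.437). With arrays scaled to their median, the value at 1 dpi was -1.03 and Inhba was called as lower.

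The promoters of Bmp4 and Tgfb2 are shown because these genes rose together and both had a window in the RefSeq table (GRCm38.p6), which covered 7 of the 10 genes with 9 windows. The 250 bases before the transcript start are printed for Tgfb2 (chr1:186705990-186706239, minus strand) and for Bmp4 (chr14:46390670-46390919, minus strand). Capitals mark CAGAC, the box that SMAD3 and SMAD4 are known to bind, searched on both strands as CAGAC or GTCTG. The BMP-type motif GGCGCC, which is its own reverse complement, was searched too and does not overlap with CAGAC.
Tgfb2: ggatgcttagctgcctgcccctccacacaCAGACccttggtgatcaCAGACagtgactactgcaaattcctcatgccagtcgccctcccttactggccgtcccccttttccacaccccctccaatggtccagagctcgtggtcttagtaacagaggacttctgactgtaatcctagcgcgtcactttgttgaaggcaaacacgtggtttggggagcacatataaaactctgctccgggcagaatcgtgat
Bmp4: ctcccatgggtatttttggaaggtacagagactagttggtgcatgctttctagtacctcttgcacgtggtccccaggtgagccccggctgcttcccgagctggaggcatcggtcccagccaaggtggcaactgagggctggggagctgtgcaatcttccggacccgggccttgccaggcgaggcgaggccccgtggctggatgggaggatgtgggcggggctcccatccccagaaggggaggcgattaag
The Tgfb2 window held CAGAC at 2 places, starting 221 and 204 bases before the start, and the Bmp4 window held neither motif. Over all 32851 promoter windows of this length, 42.2% held CAGAC and 9.59% held GGCGCC. Of the 9 windows of the listed genes, 5 held CAGAC (Tgfb2, Tgfbr2, both windows of Ltbp1 and 1 of the windows of Tgfbr1), and 1 window of Tgfbr1 held GGCGCC. Of the genes that rose, only Tgfb2, with CAGAC, and Bmp4, without it, had a window. A match of letters is not a site of binding.

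Ltbp1 encodes a binding protein that anchors latent TGF-β in the matrix, and the 3 tested of its 4 probes did not move together. The brightest probe was at -0.27, -0.16 and -0.28 in Ctrl, at -0.24, -0.26 and -0.23 at 1 dpi and at 0.57, 0.32 and 0.35 at 3 dpi. Here the 3 dpi arrays lay above all others, and 1 dpi overlapped with Ctrl. The change at 3 dpi was 0.65 ± 0.08 (adjusted p = 0.000573), under the 2-fold minimum, and that at 1 dpi was -0.0044 ± 0.08 (adjusted p = 0.965). The second and the third probe, which are dimmer, gave 1.02 ± 0.11 and 0.97 ± 0.29 at 1 dpi, but 0.38 ± 0.11 and 0.39 ± 0.29 at 3 dpi. The second probe was called at 1 dpi (adjusted p = 0.000168), where the brightest probe showed no change, and the third was not. The fourth probe was well above background on 1 of 9 arrays and was not tested.

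Tgfbr1, the type I receptor of TGF-β, fell at 1 dpi and returned to its Ctrl level at 3 dpi by its brightest probe. This probe was at 1.85, 1.85 and 1.80 in Ctrl, at 0.63, 0.78 and 0.84 at 1 dpi and at 1.61, 1.92 and 1.89 at 3 dpi. The 1 dpi arrays lay below all others, and Ctrl and 3 dpi overlapped. The log2 fold change was -1.08 ± 0.10 at 1 dpi (adjusted p = 9.37e-05), a 2.12-fold fall, and -0.03 ± 0.10 at 3 dpi (adjusted p = 0.86). Between 3 and 1 dpi the difference was 1.06 ± 0.10 (adjusted p = 0.000169), and it was 0.998 without 1 dpi replicate 1 and 0.999 without 3 dpi replicate 2, just under the 2-fold minimum.

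The other 3 Tgfbr1 probes went the other way at 1 dpi. The second probe rose by 1.19 ± 0.10 (adjusted p = 7.07e-05 over 44300 probes) and was called as higher, while the fourth was at 0.98 ± 0.06. The third probe was at -3.65, -3.56 and -2.09 at 1 dpi against -3.57, -3.52 and -3.61 in Ctrl, so that its change of 0.47 ± 0.37 came from 1 dpi replicate 3. The mean over all 4 probes was 0.39 at 1 dpi, and the fall of Tgfbr1 therefore holds for its brightest probe only. The file places the second probe across 3659 bases of the genome, so that its bases are not contiguous there. Probe brightness moved with these differences. The brightest Tgfbr1 probe lay in the highest quartile of mean level over all probes, where the median change at 1 dpi was -0.03, and the others lay in the 2 lowest quartiles, where it was 0.56 and 0.36. The dimmer Ltbp1 probes lay in the second quartile as well, and the part of brightness in these results was not tested.

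Tgfbr2, the type II receptor that binds the ligand, moved less than 2-fold in all comparisons. Its probe was at 3.14, 3.08 and 3.10 in Ctrl, at 2.75, 2.80 and 2.81 at 1 dpi and at 3.44, 3.56 and 3.47 at 3 dpi. The 3 groups did not overlap, with 1 dpi lowest and 3 dpi highest. The difference was -0.32 ± 0.06 at 1 dpi (adjusted p = 0.00298), 0.38 ± 0.06 at 3 dpi (adjusted p = 0.00184) and 0.70 ± 0.06 between 3 and 1 dpi (adjusted p = 0.000113). Tgfbr2 was thus not called, but with the main scaling its small shifts were larger than the spread between replicates. Scaled to the array median, Tgfbr2 was at -0.64 at 1 dpi and 0.23 at 3 dpi. Not every alternative processing kept its adjusted p at 3 dpi under 0.05. The file places its 60-base probe over 10 bases of the genome only.

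Smad7, the inhibitory SMAD that TGF-β itself induces, was lower after IR without reaching the 2-fold minimum. The brightest probe was at 0.61, 1.26 and 1.26 in Ctrl, at 0.18, 0.41 and 0.37 at 1 dpi and at 0.37, 0.34 and 0.41 at 3 dpi. All irradiated arrays lay below Ctrl, but Ctrl replicate 1 was much closer to them than the other Ctrl arrays. The difference was -0.72 ± 0.17 at 1 dpi (adjusted p = 0.00895) and -0.67 ± 0.17 at 3 dpi (adjusted p = 0.0198). On the slide that holds all other arrays, without Ctrl replicate 1, it was -0.94 and -0.89. The second Smad7 probe fell by 1.12 ± 0.16 at 1 dpi (adjusted p = 0.000792), past the minimum, and was at -0.84 ± 0.16 at 3 dpi. Both probes thus had the same direction at both times. With arrays scaled to their median, the brightest probe was at -1.05 at 1 dpi (adjusted p = 0.000259) and Smad7 was called as lower.

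Chrdl1 encodes chordin-like 1, a secreted protein that binds BMP4 and keeps it from its receptors, and it rose more than any other of the 10 genes at 3 dpi. Its brightest probe was at -4.26, -4.64 and -4.72 in Ctrl, at -2.05, -2.27 and -2.14 at 1 dpi and at 0.53, 0.59 and 0.76 at 3 dpi. The 3 groups were far apart, and the arrays of each group lay close together. Chrdl1 rose 5.22-fold at 1 dpi (log2 2.38 ± 0.13, adjusted p = 8.67e-06) and 35.8-fold at 3 dpi (log2 5.16 ± 0.13, adjusted p = 3.03e-07). The step from 1 to 3 dpi was 6.86-fold (log2 2.78 ± 0.13, adjusted p = 1.22e-05). The other 2 probes gave 2.73 and 1.21 at 1 dpi and 4.99 and 3.66 at 3 dpi, and all 3 Chrdl1 probes were called in all 3 comparisons.

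**Figure D2:**
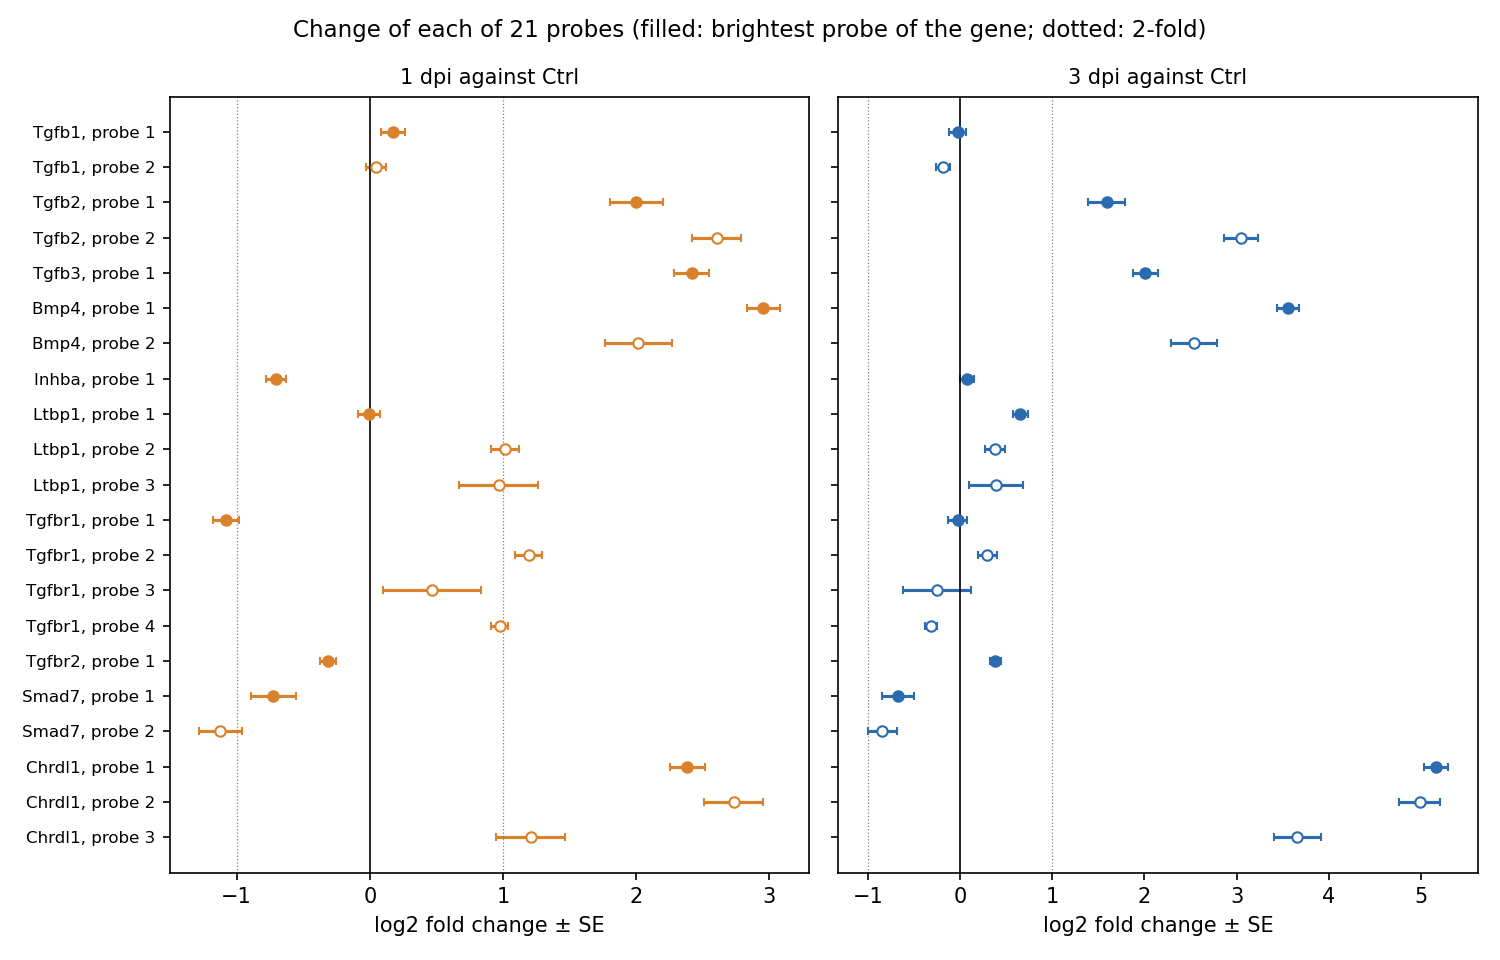
Change of the 21 tested probes at 1 dpi (left) and 3 dpi (right) against Ctrl, as log2 fold change with its SE from limma. Probes of a gene are numbered by brightness, filled points are the brightest probe, and dotted lines mark a 2-fold change. The Chrdl1, Bmp4 and Tgfb2 probes all lie above 2-fold, whereas the brightest Tgfbr1 probe (-1.08) and the others (0.47 to 1.19) lie on opposite sides of 0 at 1 dpi. For the second Tgfb2 probe the point is the fitted value, and only the bound in the text can be stated.

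Within the slide that holds all arrays but Ctrl replicate 1, the changes at 1 dpi were 2.16 for Tgfb2, 2.27 for Tgfb3, 2.99 for Bmp4, 2.53 for Chrdl1 and -1.08 for Tgfbr1. At 3 dpi they were 1.75 for Tgfb2, 1.87 for Tgfb3, 3.59 for Bmp4 and 5.30 for Chrdl1. All these calls were kept. Relative to the median shift of all genes, the rise at 1 dpi was 1.78 for Tgfb2, 2.19 for Tgfb3, 2.73 for Bmp4 and 2.16 for Chrdl1, and Tgfbr1 was at -1.31. This shift differed with brightness. In the second quartile of mean level over all genes, counted from the dimmest, the median at 1 dpi was 0.45. Tgfb2, Tgfb3 and Chrdl1 lay there, and Bmp4 and Tgfbr1 lay in the third quartile, where it was -0.06. The deposited table of log2 values has 1 row per gene name, and for Ltbp1, Tgfbr1, Tgfb2 and Smad7 this row matched a probe that was not the brightest. In that table Tgfbr1 changed by 0.14 at 1 dpi and Smad7 by -1.36, whereas Bmp4, Tgfb3 and Chrdl1, whose rows matched the brightest probe, rose by 2.80, 2.21 and 2.05.

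Summed markers of stromal, osteoblastic, endothelial and macrophage cells were higher post IR, as were the genes that rose, whereas summed B cell markers were lower. Such sums weigh bright genes most. The log2 change was above 0 at 3 dpi for 11 of 12 stromal, 6 of 7 osteoblast, 7 of 9 endothelial and 12 of 12 macrophage markers. Markers that went the other way include Pdgfrb (-0.43 and -0.38 at 1 and 3 dpi), Tek (-0.93 at 1 dpi) and Erg (-0.95 at 3 dpi). Summed over 12 stromal markers, the linear intensity relative to the 75th percentile was 14.2 to 14.9 in Ctrl, 62.0 to 71.4 at 1 dpi and 124 to 136.8 at 3 dpi. Of these markers, 8 of 12 were called higher at 1 dpi and 8 of 12 at 3 dpi, with a median log2 fold change of 1.59 and 3.50. The 7 osteoblast markers summed to 3.52 to 3.68 in Ctrl, 15.7 to 18.02 at 1 dpi and 23.8 to 25.7 at 3 dpi, with 4 and 5 of 7 called higher. Dmp1 is among the 4 at 1 dpi, but it was well above background on 1 of 3 Ctrl and 0 of 3 arrays at 1 dpi and has no usable fold there. The 9 endothelial markers summed to 5.36 to 5.88, 8.12 to 8.74 and 13.0 to 15.5, with 3 and 6 of 9 called higher. The order Ctrl, 1 dpi, 3 dpi is thus that of Bmp4 and Chrdl1, while Tgfb2 and Tgfb3 were lower at 3 dpi than at 1 dpi by their brightest probes.

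The 12 macrophage markers summed to 65.2 to 77.9 in Ctrl, 100.3 to 107.5 at 1 dpi and 187.3 to 202.5 at 3 dpi, where 5 rose and 1 fell at 1 dpi and 10 rose at 3 dpi. B cell markers fell, with 9 of 10 called lower at each time and sums of 39.5 to 42.2 in Ctrl against 7.93 to 8.22 and 7.93 to 8.18. Of 9 erythroid markers, 6 fell and 2 rose at 1 dpi, and 8 fell at 3 dpi. Their sum was 123.8 to 152.9 in Ctrl, 278.5 to 343.1 at 1 dpi and 46.1 to 49.9 at 3 dpi, so that at 1 dpi it was higher while most of these genes were lower. The 9 markers of T and NK cells summed to 3.71 to 4.70, 5.65 to 6.26 and 6.07 to 6.73, with 1 and 4 of 9 called higher. The 10 neutrophil markers summed to 1496 to 1572 in Ctrl, 2406 to 2596 at 1 dpi and 1493 to 1669 at 3 dpi, with 1 and 0 genes called. The 8 dendritic markers summed to 37.8 to 58.8, 75.1 to 81.8 and 47.9 to 55.1. Of the 7 tested, 1 rose and 2 fell at 1 dpi and 1 fell at 3 dpi. The 15 megakaryocyte markers summed to 223.5 to 255.3, 209.7 to 229.7 and 239.4 to 246.6. All 12 stromal and all 12 macrophage markers were well above background on every array. The part of these cell types in the changes of Bmp4, Chrdl1, Tgfb2 and Tgfb3 was not tested.

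**Figure D3:**
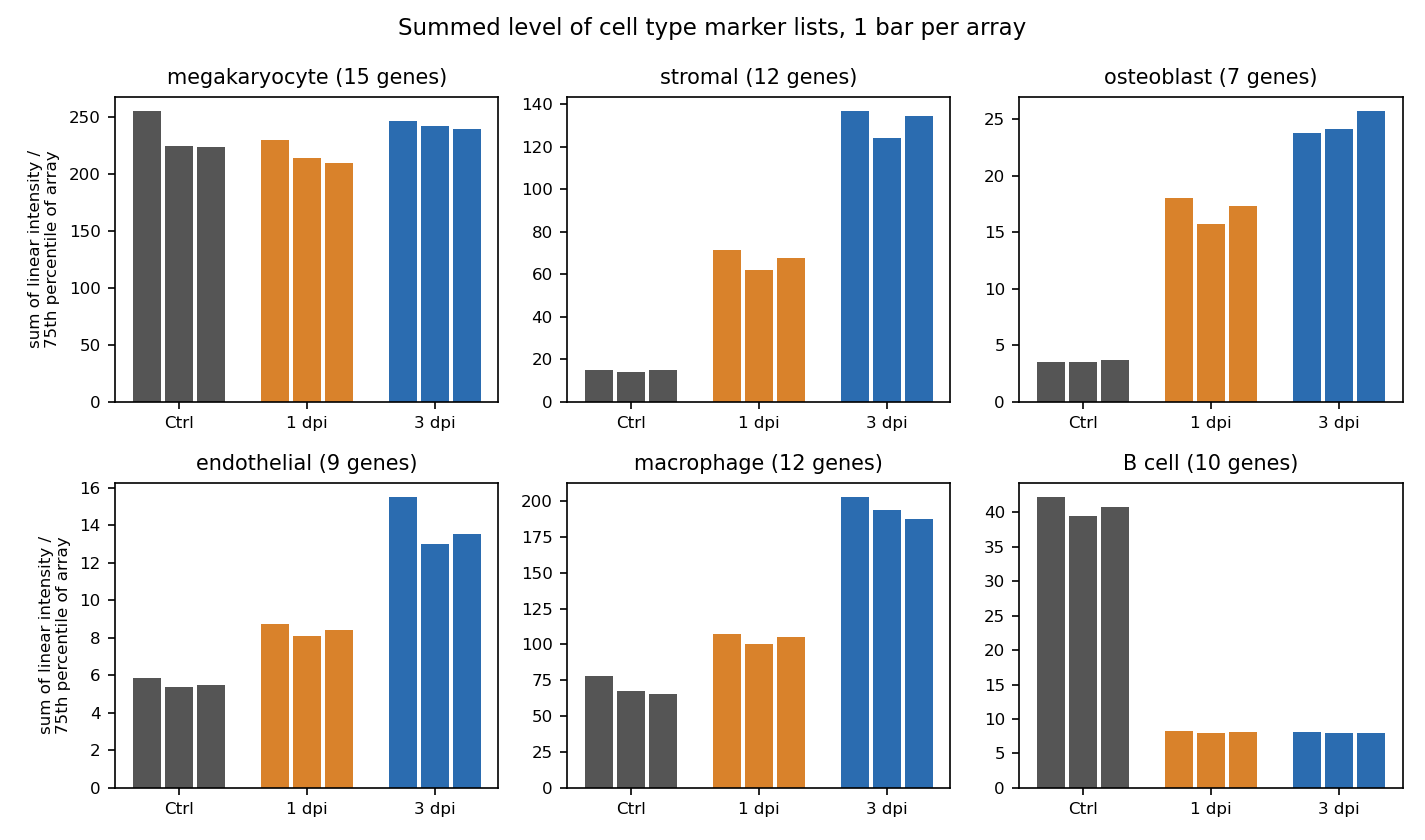
Summed linear intensity of marker lists relative to the 75th percentile of the array, with 1 bar per array for Ctrl (grey), 1 dpi (orange) and 3 dpi (blue). The axes start at 0 and differ between panels. The megakaryocyte sum stays between 209.7 and 255.3, the stromal sum rises from 14.2 to 14.9 in Ctrl to 124 to 136.8 at 3 dpi, and the B cell sum falls from 39.5 to 42.2 in Ctrl to 7.93 to 8.22 at 1 dpi.

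Of the 91 other pathway genes, 26 rose and 2 fell at 1 dpi. At 3 dpi 24 of them rose and 1 fell, and from 1 to 3 dpi 12 rose and 4 fell. The median log2 fold change of the list was 0.38, 0.39 and 0.08, beside 0.23, 0.12 and -0.08 over all genes. With the 4 genes that 1 or 2 groups showed above background on 0 arrays set to their bound, or left out where both groups were dim, the list median was 0.33, 0.39 and 0.04. The share called higher, 26 of 91 genes, can be read against the 11.7% given above for all genes at 1 dpi. At 3 dpi the share of all genes called higher was 7.04%. Of all genes, 3.08% were called lower at 1 dpi and 1.79% at 3 dpi. Between 3 and 1 dpi, 4.16% of all genes were called higher and 4.48% lower. The counts per role below are to be read against the same shares.

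Of 20 ligand genes tested, 6 rose and 1 fell at 1 dpi, and 5 rose at 3 dpi. Bmp5, a BMP of cartilage and bone, was at -5.26, -5.51 and -5.24 in Ctrl, at -2.75, -3.26 and -2.78 at 1 dpi and at -1.47, -1.32 and -1.24 at 3 dpi. The groups did not overlap, and Bmp5 rose 5.30-fold and 15.9-fold by this probe (adjusted p = 1.64e-05 and 1.28e-06). The other Bmp5 probe gave smaller log2 changes of 1.57 and 1.93. Gdf15, a stress-induced member of the family, rose 8.25-fold at 1 dpi and 6.28-fold at 3 dpi (adjusted p = 2.54e-07 and 3.49e-07). Its arrays lay between 0.22 and 0.37 in Ctrl and between 2.84 and 3.41 post IR. Inha, the inhibin α gene, was the ligand called lower at 1 dpi, where it was well above background on 0 of 3 arrays, so that its fall is at least 1.16-fold.

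Of 14 genes of latency and activation, 4 rose and 1 fell at 1 dpi, and 4 rose at 3 dpi. Dcn, which encodes the TGF-β-binding proteoglycan decorin, rose 2.82-fold at 1 dpi and 12.6-fold at 3 dpi (adjusted p = 7.74e-05 and 8.63e-07). Ltbp2, a matrix relative of Ltbp1, rose by 3.07 and 3.46 log2 units by its brightest probe (adjusted p = 2.05e-06 and 9.13e-07), while its other probe gave 0.91 and 0.34 on the log2 scale. The gene called lower was Itgb8, a subunit of the integrin that activates latent TGF-β, named here after its values were seen. Its mean level was -0.04 ± 0.25 (SD, 3 arrays a group) in Ctrl, -3.37 ± 1.02 at 1 dpi and 0.03 ± 0.95 at 3 dpi, so that both irradiated groups were widely spread. The difference was -3.34 ± 0.60 (SE) at 1 dpi (adjusted p = 0.00241) and 0.07 ± 0.60 at 3 dpi (adjusted p = 0.941).

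Of 16 receptors and co-receptors, 3 were called higher at each time and 0 lower, against 11.7% and 7.04% of all genes called higher. Among the 3 at 3 dpi, Hjv is known only as a rise of at least 1.39-fold. Acvrl1, the type I receptor ALK1 of endothelial cells, rose 2.91-fold at 1 dpi (adjusted p = 6.25e-06) and was at 0.85 ± 0.08 at 3 dpi, under the minimum. Tdgf1, a co-receptor of nodal, rose 9.17-fold at 1 dpi (adjusted p = 1.24e-05), with arrays at 6.33 to 6.61 against 2.90 to 3.62 in Ctrl. At 3 dpi Tdgf1 was at 0.96 ± 0.19, and its 3 probes ranged from 0.60 to 3.20 at 1 dpi.

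The SMADs and their regulators had the lowest medians of the roles, at -0.13 and -0.10. Of 18 genes, 1 rose at 1 dpi, against 11.7% of all genes. At 3 dpi 1 rose and 1 fell, against 7.04% and 1.79% of all genes. Pmepa1, which binds receptor SMADs and is a known TGF-β target, was the gene that rose, 2.33-fold at 1 dpi and 2.23-fold at 3 dpi (adjusted p = 9.30e-05 and 0.000148). Tgif2, a SMAD co-repressor, fell 2.21-fold at 3 dpi by its brightest probe (adjusted p = 7.54e-06), and its 4 probes ranged from -1.14 to -0.10. Smad2 was at -0.36 ± 0.07 and -0.08 ± 0.07, and Smad3 was at -0.21 ± 0.06 and -0.68 ± 0.06 at 1 and 3 dpi. Smad4 was at -0.52 ± 0.08 and -0.20 ± 0.08, with probes from -1.09 to 0.34 at 1 dpi. Smad6, the inhibitory SMAD of the BMP arm, was at 0.21 ± 0.21 and 0.45 ± 0.21 (adjusted p = 0.423 and 0.152), with Ctrl replicate 1 (-1.92) well below the other Ctrl arrays (-1.08 and -1.15). By their brightest probes, Smad2, Smad3, Smad4 and Smad6 thus showed shifts under 2-fold, while 1 Smad4 probe passed 2-fold at 1 dpi.

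Of 10 secreted antagonists tested, 5 were called higher at 1 dpi and 4 at 3 dpi, and 0 lower. Fstl1, which encodes follistatin-like 1, rose 6.69-fold at 1 dpi and 19.9-fold at 3 dpi by its brightest probe (adjusted p = 1.77e-06 and 2.59e-07), while its 3 probes ranged from 0.21 to 2.74 at 1 dpi and from 0.33 to 4.31 at 3 dpi on the log2 scale. Grem1, the BMP antagonist gremlin 1 of skeletal stroma, rose 2.82-fold and 12.7-fold (adjusted p = 6.26e-05 and 7.16e-07), from -3.54 to -3.10 in Ctrl to 0.23 to 0.37 at 3 dpi. Grem1, Fstl1, Dcn and Bmp5 shared the order Ctrl, 1 dpi, 3 dpi with Chrdl1 and Bmp4. Bmper, counted among those called higher at 1 dpi, was well above background on 0 of 3 arrays in both Ctrl and 1 dpi and has no usable fold there. At 3 dpi its rise was at least 8.43-fold.

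Of 13 known target genes, 7 were called higher at each time and 0 lower, with medians of 1.00 and 1.45. Cdkn1a, a target of TGF-β and also of p53, was at 1.35, 1.08 and 1.07 in Ctrl, at 5.04, 4.996 and 5.001 at 1 dpi and at 3.83, 3.57 and 3.54 at 3 dpi. The groups did not overlap, and it rose 14.4-fold at 1 dpi and 5.59-fold at 3 dpi by its brightest probe (adjusted p = 4.39e-07 and 2.19e-06). Its 3 probes ranged from 2.51 to 5.68 on the log2 scale at 1 dpi and from 1.31 to 4.26 at 3 dpi. Snai2, a mesenchymal transcription factor, rose 10.8-fold and 26.0-fold (adjusted p = 6.40e-07 and 1.87e-07). Id1, a classical BMP target, was at 0.57 ± 0.11 at 1 dpi (adjusted p = 0.00296) and at 0.24 ± 0.11 at 3 dpi (adjusted p = 0.137) and was not called. The other Id genes of the list are named here after their values were seen. Id3 was at 1.00 and 1.47 and Id4 at 2.25 and 3.11 at 1 and 3 dpi, and both were called higher at both times. Id2 was at -0.39 and -0.03 and was not called. The targets thus did not share a time course, since Cdkn1a was highest at 1 dpi and Snai2 at 3 dpi.

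**Figure D4:**
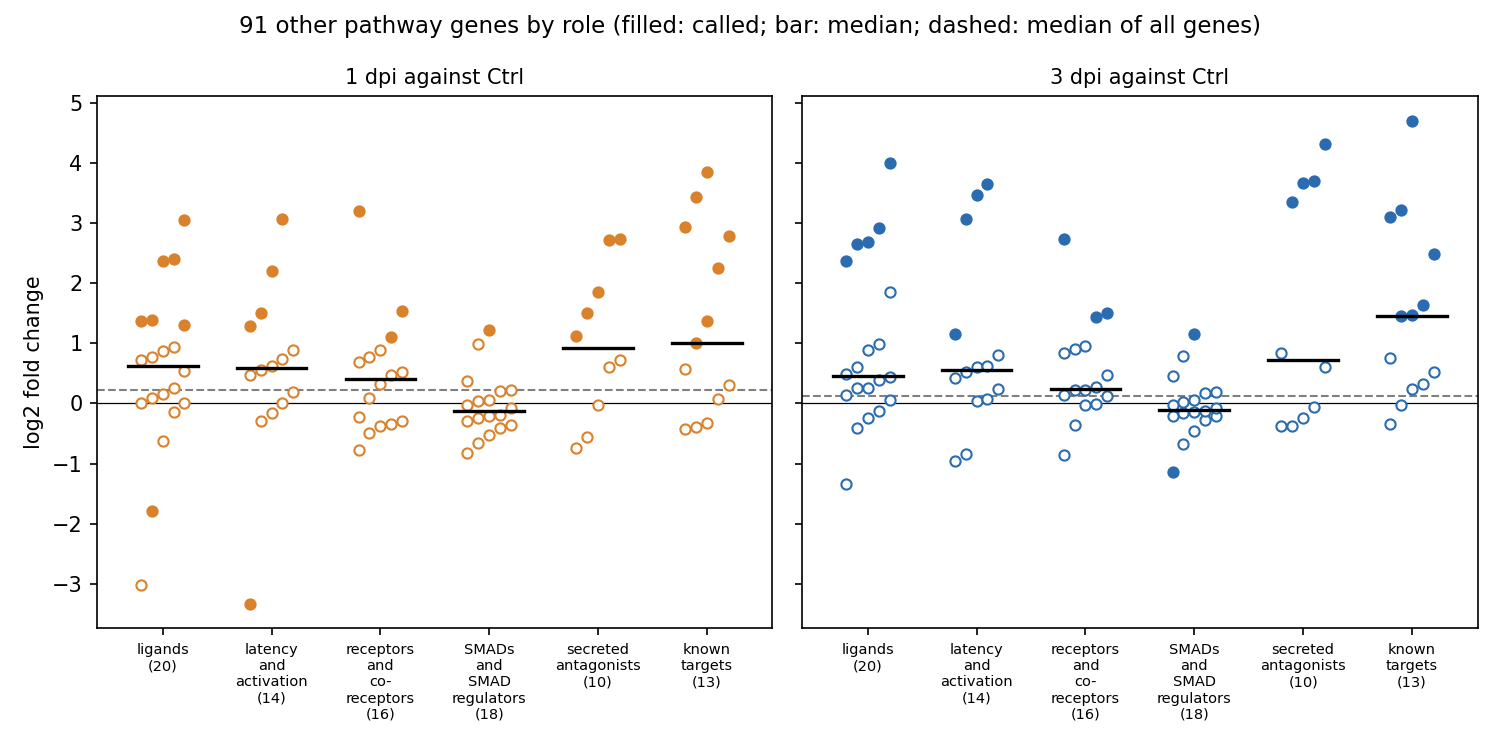
Log2 fold change of the 91 other pathway genes by role at 1 dpi (left) and 3 dpi (right) against Ctrl, with the number of genes tested in parentheses. Filled points were called, bars are medians of the role, and the dashed line is the median of all genes (0.23 and 0.12). The SMADs lie close to 0 with medians of -0.13 and -0.10, and the known targets have the highest medians, 1.00 and 1.45.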

How the data were processed

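RNA of mMKs was measured on 9 arrays, 3 each for Ctrl, 1 dpi and 3 dpi. The authors deposited 1 scanner file per array with spot intensity values from Agilent Feature Extraction 10.7.1.1 (processed signal, background-subtracted and not scaled between arrays), annotated on mm9. A second deposited file holds log2 values, 1 row for each gene name, and served as an alternative only. How it was made is not given in the sources used here. The paper's methods name an Affymetrix chip, whereas these files are Agilent arrays of 62976 spots.

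Control spots (3671) and flagged outliers were removed, repeated spots were averaged, and 0 spots were saturated. Log2 intensities were scaled by subtracting the 75th percentile of each array. A probe was kept if every array of some group put it well above background (44300 of 56605 probes), probes were named through RefSeq accessions where these matched (32994 probes) and otherwise by the file's gene name, and the brightest probe stood for its gene. The 29410 genes were fitted in R 4.3.3 with limma 3.58.1, with a mean per group over all 9 arrays and no covariate. A call needed a 2-fold change and a p under 0.05 after Benjamini-Hochberg adjustment over all genes, and values are given with the SE of the fit. Precision is limited by the number of arrays, and the smallest p of an exact permutation test with groups of 3 is 0.1. Where a probe was well above background on 0 arrays of a group, the fold is a bound: the mean of the brighter group against, per dim array, the probe's own signal or, if that is lower, the array's lowest signal that still counted as above background.

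The 10 genes, the 107 pathway genes, the marker lists, the motifs and the rule for named genes were chosen with earlier results of these data known. All 10 genes are named, and of each role in the pathway list the 2 called genes with the largest change against Ctrl among genes measured above background on every array compared, plus Smad2, Smad3, Smad4, Smad6 and Id1. A further gene of that rule is not reported here. Alternatives were the background correction, scaling, probe filter, choice of probe, fold minimum, test, slide, replicate block, the deposited table and each array left out. The scaling to the 75th percentile of the kept probes was added after seeing the data. Tables and figures used pandas 2.3.3 and matplotlib 3.10.9 in Python 3.11.15. The fit was tested on simulated data. Promoters are RefSeq's for GRCm38.p6, and no coordinates were converted between builds.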

Additional observations from a re-analysis of the deposited data

Results flagged for a closer look

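By limma's test of the difference itself and the 2-fold minimum, the change against Ctrl differed between 3 and 1 dpi for 2 of the 10 genes. Without that minimum, 7 of the 10 genes had an adjusted p under 0.05 in this test, against 13016 of all 29410 genes. For Chrdl1 the log2 change was 2.78 larger at 3 dpi (SE 0.13, adjusted p = 1.22e-05), and all 3 Chrdl1 probes showed it. For Tgfbr1 it was 1.06 larger at 3 dpi (SE 0.10, adjusted p = 0.000169) by the brightest probe, while the other 3 probes gave differences from -1.29 to -0.72, of the opposite sign. Both comparisons share the Ctrl arrays, which cancel in this difference.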

How the results depend on the processing

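Each result was recomputed under 24 alternatives. Bmp4, Tgfb3 and Chrdl1 were called against Ctrl at both times under all 24, and Tgfb2 under all but normexp at 3 dpi (0.67). In the deposited table, however, the Tgfb2 row is the second probe, well above background on 0 of 3 Ctrl arrays. Its rise is known only as at least 1.94-fold at 1 dpi and at least 2.63-fold at 3 dpi. The call in that table at 1 dpi is thus not secured, and the mean of all kept probes includes this probe too. The number of members called was 5, 4 and 2 for 1 dpi, 3 dpi and 3 against 1 dpi. It became 8, 7 and 7 without the 2-fold minimum. Between 3 and 1 dpi it was 1 in the deposited table and 1 with the mean of all kept probes, and leaving out each replicate gave 1 to 2. Of the pathway genes 28, 25 and 16 were called, against 71, 57 and 56 without the fold minimum and 9 for 3 against 1 dpi with normexp. Over all genes, 4361, 2596 and 2542 were called, against 16275, 9391 and 13016 without the fold minimum and 2443, 1294 and 1351 with normexp. Higher genes made up 79.2%, 79.7% and 48.2% of these calls. This was 56.3%, 71.5% and 62.9% with quantile normalization, 45.0%, 70.0% and 68.2% with median scaling, 49.9%, 66.9% and 62.6% in the deposited table, and 33.2% for 3 against 1 dpi with normexp. The pairing of replicate numbers was checked: arrays of the same number correlated between -0.11 and 0.13 in their deviations from the group means. No pairing was seen, but with 3 arrays a group and Ctrl replicate 1 alone on its slide, this check cannot exclude it. With a replicate block, 5, 4 and 2 members, 28, 25 and 14 pathway genes and 4186, 2505 and 2455 genes in all were called.

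Signs turned only for values that were not called in the main setting or for genes whose probes disagree. The mean of all kept probes gave 0.39 for Tgfbr1 and 0.66 for Ltbp1 at 1 dpi, and 0.015 for Tgfb2, -0.46 for Tgfbr1 and -0.19 for Ltbp1 between 3 and 1 dpi. The deposited table gave 0.14 for Tgfbr1 and 0.16 for Ltbp1 at 1 dpi, -0.78 for Ltbp1 at 3 dpi, and 0.69 for Tgfb2, -0.55 for Tgfbr1 and -0.94 for Ltbp1 between 3 and 1 dpi, where other probes stand for these genes. Scaling to the array median gave -0.15 for Tgfb1 at 1 dpi and -0.072 for Inhba at 3 dpi. Ltbp1 at 1 dpi was also above 0 with normexp (0.00068), with the percentile over kept probes (0.037) and without some single arrays (-0.026 to 0.034 over all replicates left out). Tgfb1 at 3 dpi was 0.013 with the slide as a random block, 0.027 with it as a fixed effect and -0.083 to 0.052 with each replicate left out. Leaving out replicates gave -0.083 to 0.073 for Tgfbr1 at 3 dpi and -0.017 to 0.095 for Smad7 between 3 and 1 dpi. The cause was not tested. Signal over background limits the second Tgfb2 probe and the fourth Ltbp1 probe, which were not well above background on 3 and on 8 of the 9 arrays.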
